A study of Homo sapiens with 12 samples.

Results

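GAS5, SNHG1, SNHG3, SNHG5, SNHG6, SNHG7, SNHG8, SNHG12, SNHG15 and ZFAS1 are spliced noncoding transcripts whose introns hold small nucleolar RNAs (snoRNAs). The 10 genes were taken by symbol from a table of 25365 gene names measured by RNA-seq, and all 10 were among the 11881 genes tested, those whose mean over the libraries reached 1 FPKM (fragments scaled to transcript length and to library size). None of the 10 passed an adjusted p of 0.05 in any comparison of genotype or treatment, and most of them were slightly lower in the libraries labelled PARP3-/- and after pyridostatin. In the 2 comparisons that use wild-type vehicle libraries, that direction depended on 1 library. Without it, 6 of 10 genes were lower in PARP3-/- with vehicle, and 3 of 10 were lower after pyridostatin in wild-type cells.

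The RNA came from A549, a human lung adenocarcinoma line of epithelial origin, in 4 groups of 3 libraries. Wild-type (WT) cells received vehicle (DMSO) or 1 μM pyridostatin, a small molecule that binds and stabilizes G-quadruplex (G4) nucleic acid, and cells labelled PARP3-/- received the same vehicle or the same dose. RNA was isolated after 24 h in every group. PARP3 encodes an ADP-ribosyltransferase that acts in DNA break repair, and the comparisons set transcript levels against the PARP3-/- label, the G4 ligand or both. PARP3-/- cells in the study were made with Cas9 and guides that cut within the first exon and were then cloned, and the number of clones behind these libraries is not given in the sources used here. In the genotype comparisons, loss of PARP3 and differences that came with cloning therefore cannot be told apart. The replicates are labelled biological, but nothing says how the cultures were separated, so p-values measure the spread between these libraries.

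Host genes of this kind are transcribed by RNA polymerase II and spliced, after which the intron lariat is trimmed to a snoRNA that guides methylation or pseudouridylation of ribosomal and other RNA. The spliced exons that remain carry only short reading frames, and in several of these genes the spliced RNA is engaged by ribosomes and removed by nonsense-mediated decay (NMD). Many hosts also belong to the 5′ terminal oligopyrimidine (TOP) class, whose transcripts begin with C and a run of pyrimidines and whose synthesis or translation follows the growth state of the cell. GAS5, for growth arrest-specific, was found as a transcript that accumulates when cells stop growing, and its RNA can bind the glucocorticoid receptor.

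The first bases of the transcripts are shown because the TOP class is defined there. Each line gives 6 bases before and 20 bases from the annotated RefSeq start on the transcribed strand (GRCh38.p14), and capitals mark the unbroken run of C and T that begins at the start.
SNHG12, chr1:28581854-28581879, minus strand: cagcgcCCTTTCTCCCCgccgcattc
SNHG5, chr6:85678714-85678739, minus strand: ttcggtCTTTTacgtcggccttcgcg
ZFAS1, chr20:49278636-49278661, plus strand: ttcgttCTTTCgcgtctgcggtgccc
SNHG7, chr9:136728165-136728190, minus strand: ctcgtcCTCTgcgtgcgccggaggct
SNHG1, chr11:62855866-62855891, minus strand: ttcgttCTCatttttctactgctcgt
SNHG8, chr4:118278756-118278781, plus strand: gcctttCacattcgggaagcgtcggg
SNHG3, chr1:28505937-28505962, plus strand: gtttctgattctctaactgcgcatgc
GAS5, chr1:173869026-173869051, minus strand: gaattcagatgtgtttattttggagc

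SNHG6 and SNHG15 had no promoter window in the table used. A TOP start, taken as C at the first base and C or T at each of the following bases up to base 5, was found in SNHG12, SNHG5 and ZFAS1, that is in 3 of 8 windows against 4.07% of 35116 RefSeq promoter windows. A start with C was found in 6 of 8 against 14.7% of all windows. The annotated start differs between isoforms: in GENCODE release 29, 22 of 131 transcripts of the 10 genes (16.8%) began with a TOP start against 2.41% of 206694 transcripts, and transcripts of a gene often share a start. GAS5, whose RefSeq window began with a purine, had a TOP start in 6 of its 29 GENCODE transcripts, and SNHG6 had one in 3 of 5. A G4 motif (4 runs of GGG with 1 to 7 bases between them, either strand) was found in 0 of 8 windows against 25.0% of all windows. The E-box CACGTG was found in SNHG7 alone, in 1 of 8 windows against 7.26% of all, and lies outside the bases printed above. The windows searched for the G4 motif and the E-box reach beyond those printed bases.

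The 12 libraries held about 22000000 to 31200000 reads each, as estimated from the steps between low FPKM values, and the member with the fewest reads, SNHG12, was supported by about 259 to 460 reads per library. Epithelial keratins were high in every library (KRT8 2766 to 3375 FPKM, KRT18 2207 to 3314 FPKM), as were ALDH1A1 (1546 to 2102 FPKM) and AKR1B10 (1464 to 2187 FPKM), whereas EPCAM was low (0.879 to 2.36 FPKM) and among leukocyte markers CD3E was listed at 0, PTPRC reached at most 0.00776 FPKM and CD14 measured 2.81 to 6.26 FPKM. The PARP3 transcript was not lower in the libraries labelled PARP3-/-. With vehicle it stood at 3.73 ± 0.293 FPKM in WT and 4.41 ± 0.447 FPKM in PARP3-/- (SD, n = 3 each), and with pyridostatin at 3.79 ± 0.243 and 4.58 ± 0.245 FPKM (limma adjusted p = 0.137 and 0.0781, the second 0.0403 without WT vehicle replicate 2). A deletion in the first exon need not lower the amount of transcript, and no value here checks the genotype itself.

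The 10 host genes ranged from moderately to highly expressed. SNHG5 was the most abundant, at a mean of 399.1 FPKM over the 12 libraries (343.9 to 507.0), which placed it in the top 1.54% of the genes tested. ZFAS1 followed at 246.3 FPKM (224.2 to 312.9), and then SNHG6 at 172.9 FPKM and SNHG8 at 159.6 FPKM, whose ranges overlapped although SNHG6 was above SNHG8 in 11 of 12 libraries. GAS5 had a mean of 96.7 FPKM (85.0 to 123.9). SNHG7 at 78.6 FPKM and SNHG1 at 76.2 FPKM were not separated, SNHG7 being the higher in 8 of 12 libraries.

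SNHG3, which shares its 5′ region with the protein-coding gene RCC1, stood at 26.6 FPKM and was above SNHG15 at 23.5 FPKM in 9 of 12 libraries. SNHG12 was the lowest, at 17.8 FPKM (15.6 to 21.2), in the top 35.3% of genes. SNHG15 and SNHG12 overlapped in range but kept their order in 12 of 12 libraries, as did GAS5 and SNHG7. FPKM divides by transcript length, so these levels can be compared between genes, but the length the authors' annotation gave each gene is not given in the sources used here. The coefficient of variation over the 12 libraries ran from 6.58% for SNHG6 to 11.2% for SNHG3.

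**Figure D1:**
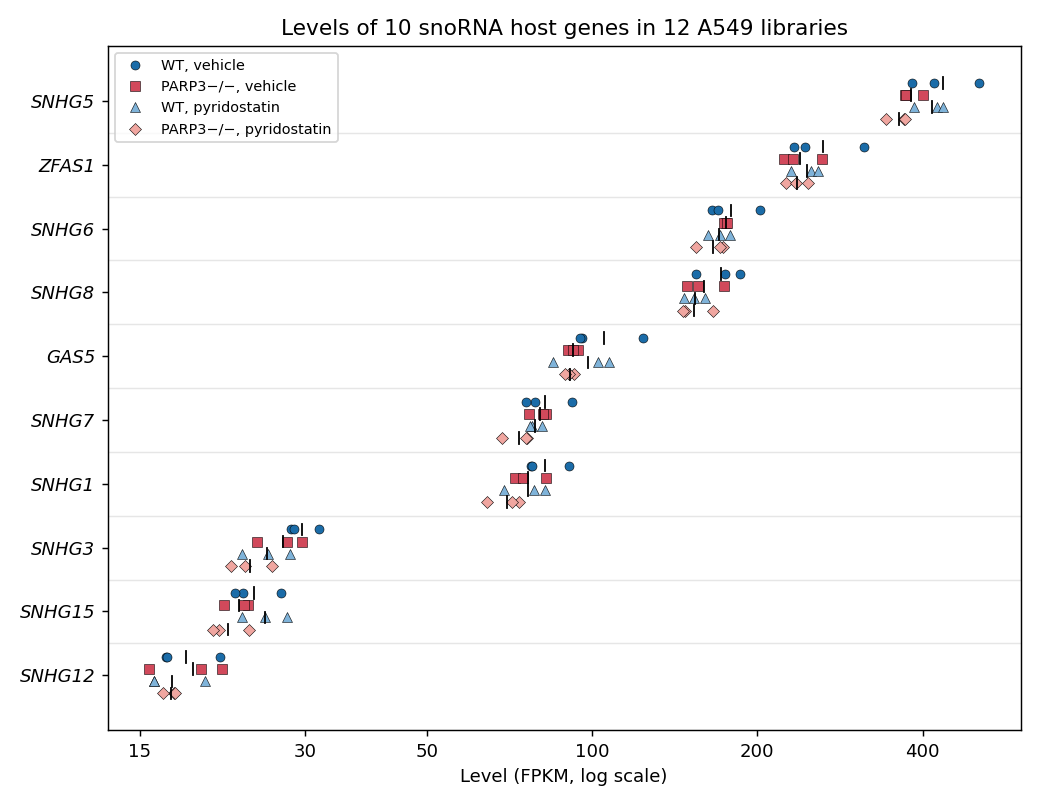
Levels of the 10 host genes in FPKM on a log axis, 1 point per library in 4 groups, with a vertical bar at each group mean. SNHG5 lies between 343.9 and 507.0 FPKM and SNHG12 between 15.6 and 21.2 FPKM, and in every gene the highest WT vehicle point, replicate 2, lies to the right of the other WT vehicle points.

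Replicate 2 of WT vehicle stood apart. It was the highest of the 3 WT vehicle libraries for 10 of 10 host genes, against 43.2% of all genes tested, and the highest of all 12 libraries for 8 of 10, against 21.9%. GAS5 measured 123.9 FPKM there and 96.1 and 95.2 FPKM in the other WT vehicle libraries. ZFAS1 measured 312.9 FPKM against 243.9 and 233.4 FPKM, and SNHG6 202.4 FPKM against 165.1 and 169.8 FPKM. Relative to each gene's mean over the 12 libraries, the 10 genes lay at a median of 0.24 on the log2 scale in that library (0.20 to 0.36), while in the other 11 libraries their median lay between -0.14 and 0.07.

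The displacement in that library was not particular to noncoding hosts. Protein-coding snoRNA hosts lay at a median of 0.17 there, and 38 of 56 of them were highest in it among the WT vehicle libraries. Genes in the lowest quartile of transcript length (up to 1579 bases) lay at 0.15 and genes in the highest (from 3828 bases) at -0.19, with all genes at -0.02. Of the 10 host genes, 8 belonged to the lowest quartile, with spliced lengths of 470 to 2201 bases over the 10. What part transcript length had in the levels of the host genes was not tested beyond the fit without the length trend given with the comparisons. At the low end, PARP3-/- pyridostatin replicate 3 had 0 of 10 host genes above their own mean, at a median of -0.14. Genes in the highest quartile of transcript length lay at 0.07 in that library and genes in the lowest at -0.02. Of all genes tested, 13.5% had their highest value of the 12 libraries there.

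**Figure D2:**
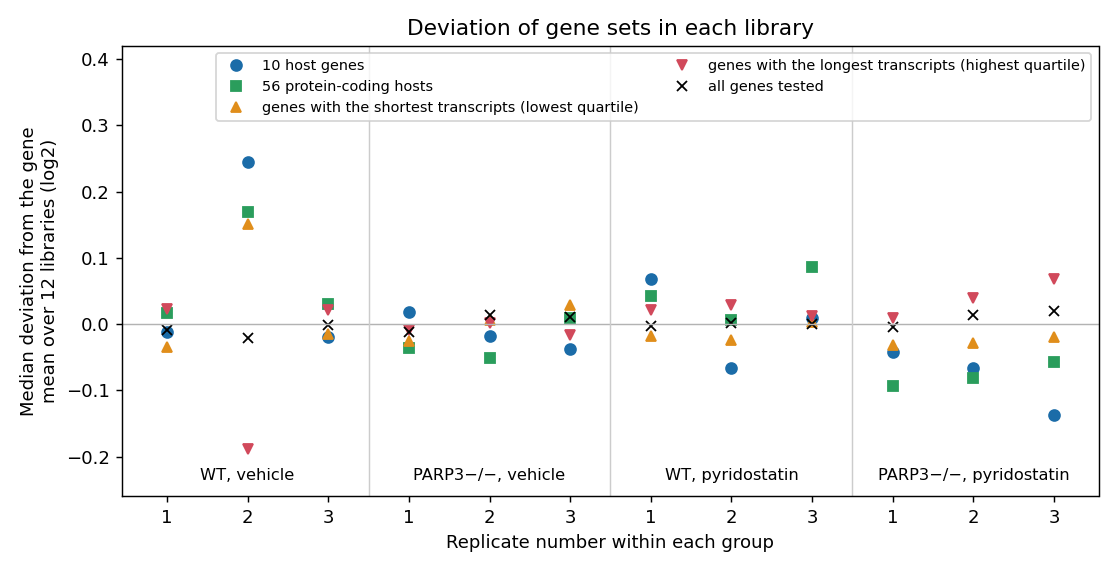
Median deviation of 5 gene sets from each gene's mean over the 12 libraries, in log2(FPKM + 1) units, for each library by group and replicate number. WT vehicle replicate 2 holds the host genes at 0.24 and the genes with the longest transcripts at -0.19, and the host genes lie between -0.14 and 0.07 in the other 11 libraries.

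The comparison of genotypes under vehicle asks what the PARP3-/- label changes in untreated cells. SNHG5 and GAS5 had the largest differences, both lower in the libraries labelled PARP3-/-, and only GAS5 had groups that did not overlap. GAS5 measured 96.1, 123.9 and 95.2 FPKM in WT and 94.3, 90.3 and 92.5 FPKM in PARP3-/-. The lowest WT value and the highest PARP3-/- value thus lay within 1 FPKM of each other, and the difference of -0.17 on the log2 scale (95% CI -0.40 to 0.05, limma adjusted p = 0.381) was -0.05 without WT vehicle replicate 2.

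SNHG5, host of the SNORD50 snoRNAs, measured 382.9, 507.0 and 420.5 FPKM in WT and 371.4, 373.0 and 401.0 FPKM in PARP3-/-. The groups overlapped, and the log2 difference was -0.18 (95% CI -0.39 to 0.02, limma adjusted p = 0.276), or -0.07 without WT vehicle replicate 2. Of the 10 genes 0 were called at an adjusted p under 0.05, against 9.41% of all genes, and 0 had an unadjusted p under 0.05, against 21.6%. Groups without overlap were found for 1 of 10 against 24.2% of all genes. The log2 difference was below 0 for 9 of 10 genes with a median of -0.10, and without WT vehicle replicate 2 for 6 of 10 with a median of -0.01, while all genes had a median of 0.01. Over the 10 genes the 95% intervals of the ratio of PARP3-/- to WT, on the FPKM + 1 scale, ran from 0.758 at the lowest bound (GAS5) to 1.23 at the highest (SNHG12). In bulk RNA, a lower level per cell and fewer cells that carry the transcript cannot be told apart.

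Under pyridostatin the same genotype comparison does not use the WT vehicle libraries except for the estimate of the spread. SNHG5 and SNHG15 had the largest differences, and both were lower in PARP3-/-. SNHG5 measured 424.9, 386.2 and 436.5 FPKM in WT and 343.9, 369.8 and 372.3 FPKM in PARP3-/-, so that the groups did not overlap. Its log2 difference was -0.20 (95% CI -0.40 to 0.002, limma adjusted p = 0.213). Without WT vehicle replicate 2 the difference was again -0.20 and the limma adjusted p 0.0411, and with the length trend of each library removed it was -0.17 with an adjusted p of 0.0481, so the call for SNHG5 depended on these settings. The same settings called 2298 and 1767 of all 11881 genes, against 1297 otherwise.

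SNHG15, host of SNORA9, measured 23.0, 25.4 and 27.8 FPKM in WT and 20.9, 23.7 and 20.4 FPKM in PARP3-/-. The groups overlapped by 1 library, and the log2 difference was -0.22 (95% CI -0.41 to -0.02, limma adjusted p = 0.154). SNHG7, host of H/ACA snoRNAs, measured 81.3, 77.6 and 77.0 FPKM in WT and 76.1, 75.8 and 68.6 FPKM in PARP3-/-, without overlap, for a log2 difference of -0.10 (95% CI -0.25 to 0.05, limma adjusted p = 0.443).

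In that comparison 0 of 10 genes were called, against 10.9% of all genes, and SNHG15 alone had an unadjusted limma p under 0.05 (1 of 10, against 24.0%). Groups without overlap were found for 2 of 10 genes against 35.2% of all genes. The log2 difference was below 0 in 10 of 10 genes with a median of -0.10, against 46.9% of all genes and a median of 0.01. That direction was not particular to the 10 genes, since 53 of 56 protein-coding snoRNA hosts were also below 0. Over the 10 genes the log2 difference ran from -0.22 for SNHG15 to -0.0001 for SNHG12, and the 95% intervals of the ratio ran from 0.753 to 1.20.

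**Figure D3:**
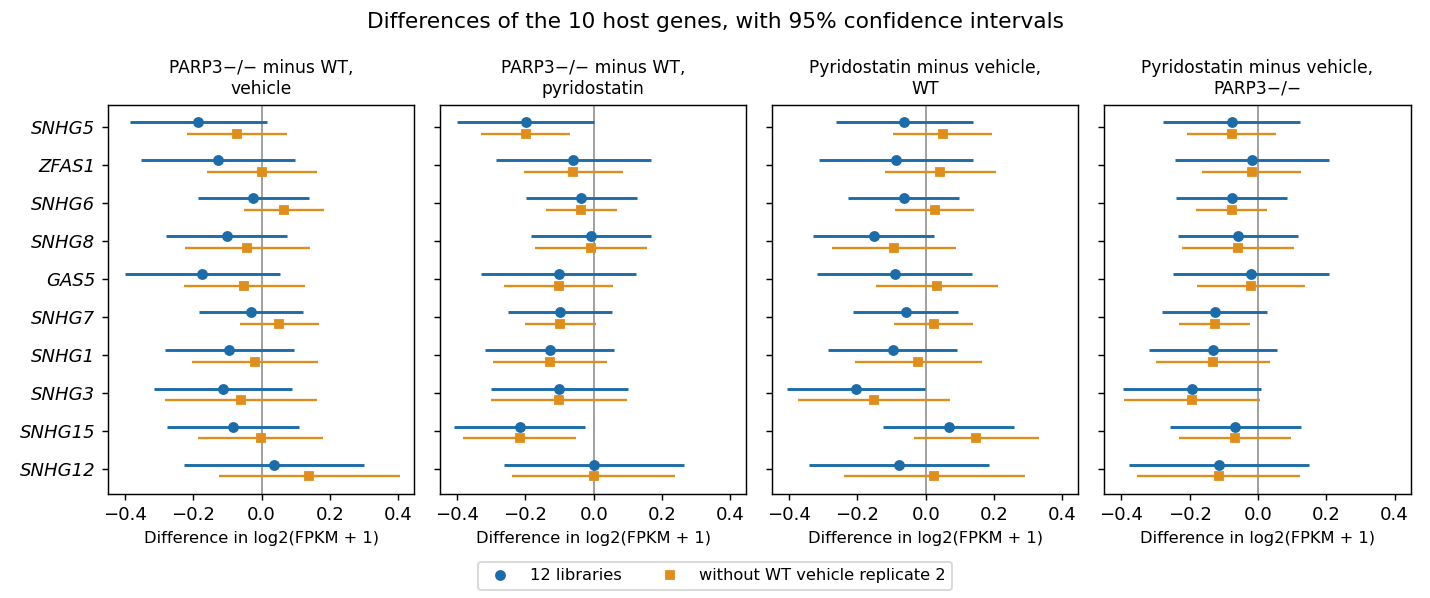
Log2 differences of the 10 host genes with 95% confidence intervals in the 4 comparisons, in order of level, with all 12 libraries (blue circles) and without WT vehicle replicate 2 (orange squares). Without that library the vehicle genotype differences and the WT pyridostatin differences move to the right, to medians of -0.01 and 0.03.

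Pyridostatin against vehicle asks what the G4 ligand changes within a genotype. The largest difference in both genotypes was that of SNHG3, host of the SNORA73 snoRNAs. In WT it measured 28.3, 31.9 and 28.7 FPKM with vehicle and 28.1, 23.0 and 25.7 FPKM with pyridostatin. The groups did not overlap, by a margin of under 1 FPKM, and the log2 difference was -0.20 (95% CI -0.41 to -0.003, limma adjusted p = 0.239) or -0.15 without WT vehicle replicate 2. In PARP3-/- it measured 29.7, 27.8 and 24.6 FPKM with vehicle and 26.2, 23.3 and 22.0 FPKM with pyridostatin, where the groups overlapped and the log2 difference was -0.19 (95% CI -0.39 to 0.01, limma adjusted p = 0.280).

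In WT, 0 of 10 host genes were called against 4.17% of all genes, and SNHG3 alone had an unadjusted limma p under 0.05 (1 of 10, against 20.3%). Groups did not overlap for 1 of 10 genes against 23.1% of all. The log2 difference was below 0 for 9 of 10 genes with a median of -0.08 (all genes 0.00), but without WT vehicle replicate 2 for 3 of 10 with a median of 0.03. SNHG15 was the exception among the 12 libraries, at 0.07 (95% CI -0.13 to 0.26).

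In PARP3-/-, 0 of 10 were called against 5.56% of all genes, and 0 had an unadjusted limma p under 0.05, against 19.6%. Groups did not overlap for SNHG6 and SNHG7, 2 of 10 genes, against 32.3% of all. SNHG6, a TOP gene and host of SNORD87, measured 175.8, 173.8 and 176.4 FPKM with vehicle and 173.2, 171.2 and 154.9 FPKM with pyridostatin, a log2 difference of -0.08 (95% CI -0.24 to 0.09). SNHG7 measured 76.9, 82.4 and 81.5 FPKM with vehicle and 76.1, 75.8 and 68.6 FPKM with pyridostatin, a log2 difference of -0.13 (95% CI -0.28 to 0.03). In both genes the vehicle and pyridostatin values nearest to each other lay within 1 FPKM. The log2 difference was below 0 in 10 of 10 genes with a median of -0.08, against 49.0% of all genes and a median of 0.00. Of the protein-coding snoRNA hosts, 48 of 56 were also below 0. Replicate 3 of that pyridostatin group was the library in which 0 of the 10 genes lay above their mean. The genotype comparison under pyridostatin and the pyridostatin comparison in PARP3-/- share the 3 PARP3-/- pyridostatin libraries, and the other pairs of comparisons share libraries in the same way.

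GAS5, known for its rise in growth-arrested cells, measured 107.4, 85.0 and 102.5 FPKM with pyridostatin in WT and 92.9, 90.8 and 89.5 FPKM in PARP3-/-. Its log2 differences from vehicle were -0.09 (95% CI -0.32 to 0.14) and -0.02 (95% CI -0.25 to 0.21). Without WT vehicle replicate 2 the WT difference of GAS5 was 0.03. ZFAS1, host of the SNORD12 snoRNAs, differed from vehicle by -0.09 in WT and -0.02 in PARP3-/-, each with an interval that held 0. Its WT difference was 0.04 without that library.

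The test of whether the pyridostatin difference depended on genotype gave log2 values from -0.13 (SNHG15) to 0.09 (SNHG8) over the 10 genes, with a median of -0.01. Each had a limma adjusted p of 0.999, and 0.0% of all genes were called in this test. At an unadjusted p under 0.05 there were 0 of 10 host genes against 4.39% of all genes. These values also depended on WT vehicle replicate 2. With it, 6 of 10 genes were below 0, against 53.2% of all genes. Without it, 9 of 10 were below 0 with a median of -0.11, against 49.5% of all genes. In that fit 0 of 10 were called, the lowest limma adjusted p being 0.534.

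Across the 12 libraries the 10 genes varied together, which is a description of libraries that share sequencing depth, length composition and groups. Pearson's r had a median of 0.551 over the 45 pairs of genes, and all 45 were above 0. The pair with the highest r was SNHG1 and SNHG3 (0.885) and the lowest was SNHG12 and SNHG15 (0.205). Without WT vehicle replicate 2 the median over 11 libraries was 0.272, 35 of 45 pairs were above 0, and SNHG8 and ZFAS1 reached -0.694, while SNHG1 and SNHG3 kept 0.840. The genes outside the 10 whose levels followed the mean z-score of the 10 most closely were PDCD5 (r = 0.946 over 12 libraries, 0.900 over 11), FBXW9 (0.935 and 0.776), PPAN (0.935 and 0.871), CDK5RAP1 (0.929 and 0.732) and APOPT1 (0.929 and 0.881). Among these, PPAN is itself a protein-coding snoRNA host.

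SNHG1 and GAS5 begin close to a gene on the opposite strand. The starts of SNHG1 and SLC3A2, which encodes the heavy chain of an amino acid transporter, lie 224 bases apart in RefSeq. SLC3A2 measured 365.7, 429.8 and 379.1 FPKM in WT vehicle and 298.4, 311.8 and 324.5 FPKM in PARP3-/- vehicle, without overlap. It fell by 0.33 on the log2 scale (limma adjusted p = 0.00545) with vehicle and by 0.31 with pyridostatin (adjusted p = 0.00627), and the first of these calls was lost under 1 of 21 alternatives (adjusted p at most 0.0754). SNHG1 itself differed by -0.09 (95% CI -0.28 to 0.09) and -0.13 (95% CI -0.32 to 0.06) in the same comparisons, and whether the pair differ from each other in response was not tested. ZBTB37, whose start lies 665 bases from that of GAS5, had a mean of 0.883 FPKM and was not tested.

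The snoRNAs that lie in the introns of the 10 genes were poorly covered by these poly(A)-selected libraries, which are not designed to hold RNAs of that length. Of 36 names listed, 32 had a row in the table, 14 were at 0 in all 12 libraries and 6 were above 0 in all 12. SNORD76, in GAS5, was the highest of them at 674 to 2675 FPKM, and its highest value was about 4 times its lowest after correction for depth. That ratio does not give a number of reads. Because FPKM divides by length, an FPKM of that size may still stand for only a few reads of so short an RNA. The reads behind the snoRNA rows were not estimated. SNORD22 (SNHG1) measured 92.4 to 269 FPKM, SNORD12B (ZFAS1) 88.6 to 342 FPKM and SNORA61 (SNHG12) 56.2 to 193 FPKM.

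SNORA16A, in SNHG12, was listed at 0 in all 6 vehicle libraries and in 2 of 3 WT pyridostatin libraries, at 6.08 FPKM in the other, and at 7.28, 22.8 and 7.59 FPKM in the PARP3-/- pyridostatin libraries. It was called higher in PARP3-/- pyridostatin against both WT pyridostatin (limma adjusted p = 0.0267) and PARP3-/- vehicle (adjusted p = 0.0117). That was 1 of 18 hosted snoRNAs tested in each comparison, against 7.07% and 3.05% of all genes called higher. SNORA16A reached the mean of 1 FPKM needed for testing only through the PARP3-/- pyridostatin libraries, so these calls are not independent of that filter. The highest value of SNORA16A was about 3 times its lowest above 0 after correction for depth. Its values too may stand for only a few reads, which that ratio does not show. The calls were lost in 5 of 20 and 1 of 20 alternatives. Leaving out PARP3-/- pyridostatin replicate 2 lost both, at adjusted p = 0.107 and 0.0545, and the first was also lost without PARP3-/- pyridostatin replicate 3, without WT pyridostatin replicate 1 or 3 (adjusted p up to 0.112), or with only the compared libraries. SNHG12, its host, differed by -0.0001 and -0.11 on the log2 scale in the same comparisons.

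Genes with related roles were described by lists compiled from general knowledge. Of 11 other noncoding hosts tested, DANCR, a long noncoding RNA that also hosts a snoRNA, was the one called. It measured 57.8, 65.4 and 56.4 FPKM in WT vehicle, 47.1, 49.6 and 49.1 FPKM in PARP3-/- vehicle, 49.7, 51.7 and 50.1 FPKM in WT pyridostatin and 49.7, 48.5 and 46.1 FPKM in PARP3-/- pyridostatin. WT vehicle was the group that stood above the other 3. DANCR fell by 0.29 between genotypes with vehicle (limma adjusted p = 0.00550) and by 0.24 with pyridostatin in WT (adjusted p = 0.0335). Of all genes 3.01% and 1.38% were called lower in these comparisons. The first call was lost with only the compared libraries (adjusted p = 0.0648). The second was lost in 8 of 21 alternatives, those being only the compared libraries and the fits without WT vehicle replicate 1, PARP3-/- vehicle replicate 2 or 3, PARP3-/- pyridostatin replicate 2 or any WT pyridostatin library (adjusted p without a library up to 0.132).

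Protein-coding snoRNA hosts are mostly ribosome-biogenesis, translation and chaperone genes. Under pyridostatin, 6 of 56 tested were called lower in PARP3-/- and 0 higher, against 3.85% and 7.07% of all genes. NCL, which encodes the nucleolar protein nucleolin, fell by 0.30 on the log2 scale from 401.8 ± 18.4 to 324.9 ± 6.64 FPKM (SD, n = 3, limma adjusted p = 0.00180). HSPA9, a mitochondrial chaperone, fell by 0.23 (adjusted p = 0.000689), GNL3, a nucleolar GTPase, by 0.21 (adjusted p = 0.00474) and TCP1, a chaperonin subunit, by 0.19 (adjusted p = 0.0167). TCP1 lost its call without WT pyridostatin replicate 3 (adjusted p = 0.0739) or without PARP3-/- pyridostatin replicate 1 (0.0581), and the other 3 kept theirs under every alternative tried. Without WT vehicle replicate 2, which is in neither group, 26 of 56 were called, against 19.3% of all genes.

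With vehicle, 2 of 56 coding hosts were called lower in PARP3-/- and 0 higher, against 3.01% and 6.40% of all genes: TCP1 fell by 0.18 (adjusted p = 0.0223) and HSPA9 by 0.15 (adjusted p = 0.00959). TCP1 lost that call without WT vehicle replicate 3 or PARP3-/- vehicle replicate 1 or 2 (adjusted p 0.0767 to 0.0881), both lost theirs with only the compared libraries, and HSPA9 lost its call with quantile normalization (adjusted p = 0.285). Under pyridostatin within PARP3-/-, 3 of 56 were called lower and 0 higher, against 2.52% and 3.05% of all genes. RCC1, the chromatin-bound exchange factor for Ran that shares the SNHG3 locus, fell by 0.23 (adjusted p = 0.0139), NCL by 0.22 and GNL3 by 0.18. RCC1 lost its call without PARP3-/- vehicle replicate 3 (adjusted p = 0.0617) or PARP3-/- pyridostatin replicate 2, NCL without any of the 6 PARP3-/- libraries, and GNL3 without any of them but PARP3-/- pyridostatin replicate 1 (adjusted p up to 0.0937). With quantile normalization NCL and GNL3 lost theirs too. In WT, 0 of 56 were called with pyridostatin, against 4.17% of all genes, with 4 of 56 at an unadjusted limma p under 0.05, against 20.3%. The median log2 difference of the coding hosts was -0.09 and -0.11 between genotypes (vehicle and pyridostatin) and -0.03 and -0.04 with pyridostatin (WT and PARP3-/-).

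**Figure D4:**
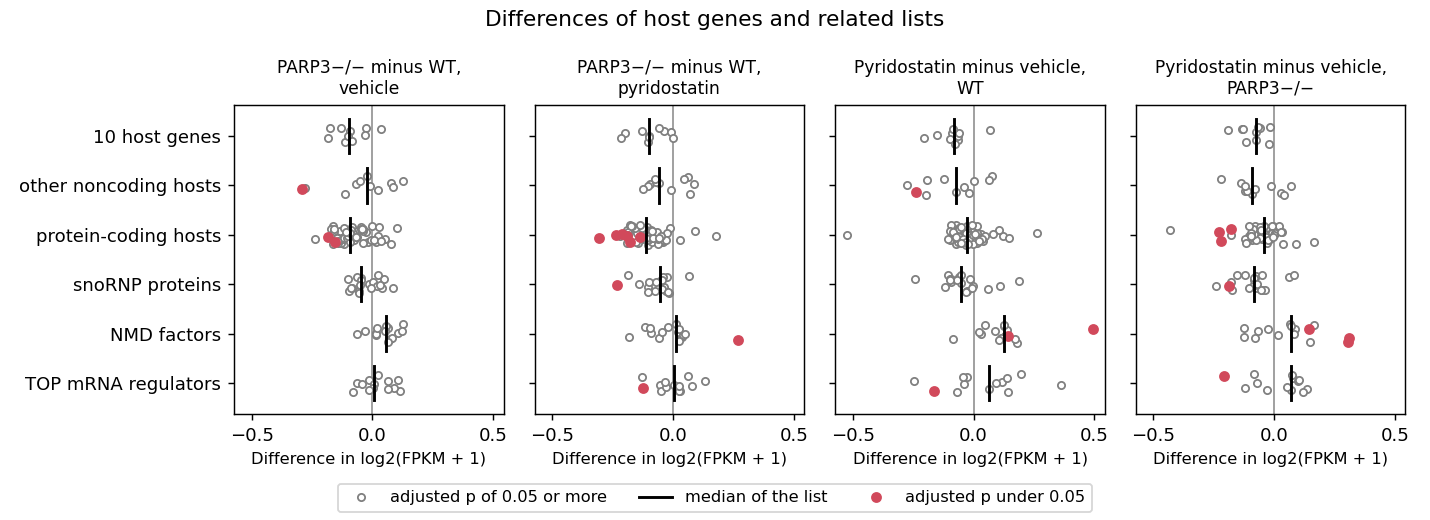
Log2 differences of the 10 host genes and 5 related lists in the 4 comparisons, 1 point per gene, spread vertically for legibility, with a bar at each list's median. Filled red points have an adjusted p under 0.05: the 10 host genes hold 0 of them in every panel, and the coding hosts hold 6 in the genotype comparison under pyridostatin, all below 0.

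Proteins of the snoRNP particle and its assembly were tested as 19 genes. The log2 difference was below 0 for 12 of 19 (genotypes, vehicle), 18 (genotypes, pyridostatin), 16 (pyridostatin, WT) and 17 (pyridostatin, PARP3-/-), against 44.4% to 49.1% of all genes. Without WT vehicle replicate 2 it was below 0 for 8 of 19 (genotypes, vehicle) and 10 of 19 (pyridostatin, WT). In PARP3-/- against WT under pyridostatin 1 was called lower, against 3.85% of all genes. This was NOP58, a core protein of C/D box snoRNPs, which fell by 0.23 (limma adjusted p = 0.0163). It lost the call without WT pyridostatin replicate 1 or 3 or PARP3-/- pyridostatin replicate 3 (adjusted p 0.0738 to 0.0747). With pyridostatin in PARP3-/- 1 of 19 was called lower, against 2.52% of all genes. This was NOLC1, a nucleolar chaperone of snoRNPs, which fell by 0.18 (adjusted p = 0.0223), a call lost with quantile normalization (0.206) and without any PARP3-/- vehicle library or PARP3-/- pyridostatin replicate 2 or 3. In the other 2 comparisons 0 of 19 were called by limma, with 0 (genotypes, vehicle) and 4 (pyridostatin, WT) at an unadjusted p under 0.05, against 21.6% and 20.3% of all genes.

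NMD factors that were called were higher. With pyridostatin 2 of 15 were called higher in WT and 3 of 15 in PARP3-/-, against 2.79% and 3.05% of all genes, and 0 were called lower. UPF2, a core NMD factor, rose from 9.39 ± 0.719 to 13.6 ± 0.450 FPKM in WT (SD, n = 3, log2 difference 0.49, limma adjusted p = 0.00128) under every alternative tried, and from 9.87 ± 0.490 to 12.5 ± 0.792 FPKM in PARP3-/- (0.31, adjusted p = 0.0156, lost without PARP3-/- vehicle replicate 2 or 3 or PARP3-/- pyridostatin replicate 3, at most 0.0725). CASC3, an exon junction protein, rose by 0.14 in WT (adjusted p = 0.0478) and lost its call in 17 of 21 alternatives, among them every fit with a library left out except that without WT vehicle replicate 1. In PARP3-/-, SMG6, the NMD endonuclease, rose by 0.30 and UPF1, the NMD helicase, by 0.14, and both lost their calls with the length trend removed and without PARP3-/- vehicle replicate 1 or 3 or PARP3-/- pyridostatin replicate 2 or 3 (adjusted p without a library up to 0.134). SMG6 also lost it without WT vehicle replicate 3 or PARP3-/- vehicle replicate 2, with no filter, with quantile normalization and with a common median (adjusted p 0.0510 to 0.0537 with these 3), 10 of 21 alternatives in all. Between genotypes with vehicle, 0 of 15 were called, against 9.41% of all genes. At an unadjusted limma p under 0.05 there were 4 of 15, against 21.6% of all genes. With pyridostatin 1 of 15 was called between genotypes, SMG6, higher by 0.27, against 7.07% of all genes called higher. That call was lost in 9 of 21 alternatives, 5 of them without PARP3-/- vehicle replicate 2, WT pyridostatin replicate 2 or 3, or PARP3-/- pyridostatin replicate 2 or 3 (adjusted p up to 0.127).

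Of 13 regulators of TOP mRNAs, CNBP, a protein that binds TOP mRNAs, was the one called, as 1 of 13 in 3 comparisons against 1.38% (pyridostatin, WT), 2.52% (pyridostatin, PARP3-/-) and 3.85% (genotypes, pyridostatin) of all genes called lower. At an unadjusted limma p under 0.05 there were 6 of 13 with pyridostatin in WT, against 20.3% of all genes. In each of the other 3 comparisons between groups there was 1 of 13, against 19.6% to 24.0% of all genes. CNBP fell with pyridostatin from 81.7 ± 2.87 to 72.9 ± 0.458 FPKM in WT (SD, n = 3, log2 difference -0.16, limma adjusted p = 0.0255) and from 77.4 ± 1.82 to 66.9 ± 1.01 FPKM in PARP3-/- (-0.21, adjusted p = 0.00645, under every alternative tried). The call in WT was lost without WT vehicle replicate 3 or WT pyridostatin replicate 1 or 3 (adjusted p 0.0772 to 0.105), with quantile normalization and with only the compared libraries. CNBP was also lower in PARP3-/- under pyridostatin by 0.12 (adjusted p = 0.0440), a call lost in 14 of 21 alternatives, among them every fit with a library left out except those without WT vehicle replicate 1 or 2. With vehicle 0 of 13 were called between genotypes by limma. SNHG12, SNHG5 and ZFAS1, the hosts with a TOP start in the sequences above, differed from vehicle by -0.08, -0.06 and -0.09 in WT and by -0.11, -0.08 and -0.02 in PARP3-/-, each with an interval that held 0. Without WT vehicle replicate 2 the WT values were 0.03, 0.05 and 0.04.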

How the data were processed

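A549 RNA-seq libraries (4 groups, 3 each, from the labels) were stranded, poly(A)-selected and sequenced as single-end 75 base reads. The authors deposited FPKM values, 1 column per library, in a table named for Cufflinks. The submitters' processing notes list bcl2fastq 2.16, STAR 2.5, Cufflinks, and the builds hg19 and mm9 without their roles. The annotation is not given in the sources used here. All 12 columns were used. Because the table holds no counts, the FPKM values that the authors deposited were tested as log2(FPKM + 1) with limma 3.58.1 in R 4.3.3 (1 model of 4 groups, eBayes with a trend) over the 11881 genes whose mean reached 1 FPKM, with Benjamini-Hochberg adjustment. A pseudocount of 1 understates differences of low genes. A gene was called at an adjusted p under 0.05 whatever its fold.

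The members and lists were chosen with earlier results of these data known. Named genes were the 10 members, PARP3, up to 4 called genes each way per list and comparison, the 5 genes most correlated with the members, and genes starting within 1000 bases on the opposite strand. Alternatives were a pseudocount of 0.1, no filter or a mean of 5 FPKM, quantile normalization, a common median, only the compared libraries, no eBayes trend, a replicate block, each library left out and, added after the data were seen, the transcript-length trend removed. Depth was estimated from the steps of low values of 234 genes, whose quartiles for 1 reference library were 23100000 and 25700000 reads. Lengths and transcript starts came from GENCODE release 29 (GRCh38), promoter windows from RefSeq (GRCh38.p14). These differ from the files' build, so they were joined by symbol (93.7% of tested genes had a length). Expression on other scales, such as counts, was not analysed here. The fit was also run on simulated data with independent noise and no shared library effect or length trend, so that run does not address either. Tables were handled in Python 3.11.15 with pandas 2.3.3, and figures drawn with matplotlib 3.10.9.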

Additional observations from a re-analysis of the deposited data

How the results depend on the processing

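The 42 log2 values of the host genes (4 comparisons and the extreme interaction values) were recomputed under up to 21 alternatives, giving 880 values, of which 844 kept their direction and side of the threshold, 34 reversed in sign (16 results, all with intervals that held 0, and 23 of the values with a library left out) and 2 became called. The interaction values of the other host genes are not in that tally. Without WT vehicle replicate 2, those of GAS5, SNHG3 and ZFAS1 reversed from 0.07, 0.01 and 0.07 to -0.05, -0.04 and -0.06. The count of host genes called was 0 in every comparison under every alternative, except the genotype comparison under pyridostatin, where it was 1 (SNHG5) with the length trend removed and 0 to 1 with a library left out, the 1 being without WT vehicle replicate 2. Those 2 fits called 1767 and 2298 of all 11881 genes. The cause was not tested.

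With quantile normalization the log2 difference reversed to 0.0066 for SNHG8 between genotypes under pyridostatin, to 0.0011 for SNHG5 with pyridostatin in WT, and to 0.0177 for GAS5 and 0.0276 for ZFAS1 with pyridostatin in PARP3-/-. With the length trend removed it reversed to 0.0353 for SNHG6 between genotypes with vehicle, to 0.041 for SNHG8 and 0.0261 for SNHG12 between genotypes under pyridostatin, and to 0.0125 for GAS5 and 0.0134 for ZFAS1 with pyridostatin in PARP3-/-. SNHG12 reversed to -0.0022 with a common median (genotypes, vehicle) and to 0.0002 with a pseudocount of 0.1 (genotypes, pyridostatin).

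With each library left out, the genotype difference with vehicle ran from -0.0803 to 0.066 for SNHG6, -0.0852 to 0.0523 for SNHG7, -0.0512 to 0.156 for SNHG12 and -0.2088 to 0.0017 for ZFAS1. Under pyridostatin it ran from -0.0703 to 0.0139 for SNHG6, -0.0654 to 0.0242 for SNHG8 and -0.049 to 0.0971 for SNHG12. The pyridostatin difference in WT ran from -0.1578 to 0.0322 for GAS5, -0.1526 to 0.0494 for SNHG5, -0.1198 to 0.0264 for SNHG6, -0.1145 to 0.023 for SNHG7, -0.1746 to 0.0253 for SNHG12 and -0.1675 to 0.043 for ZFAS1. In PARP3-/- it ran from -0.1162 to 0.0044 for SNHG8 and -0.0633 to 0.0489 for ZFAS1.

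Same-numbered libraries were taken as paired only if the deviations of every pair correlated above 0.1, which held in 0 of the 4 comparisons. The correlations were 0.0663 to 0.103 (genotypes, vehicle), -0.0207 to 0.0557 (genotypes, pyridostatin), -0.120 to 0.0264 (pyridostatin, WT) and 0.0597 to 0.216 (pyridostatin, PARP3-/-), and 6, 2, 2 and 5 of 6 libraries correlated best with their own number. With the replicate number as a block 0 host genes were called, and the genes called were 1052, 1214, 411 and 589 in place of 1118, 1297, 495 and 661. Over all genes, only the compared libraries gave 532 calls in place of 1118 (genotypes, vehicle) and 65 in place of 495 (pyridostatin, WT). Leaving out a library gave 806 to 2298 calls in place of 1297, 178 to 706 in place of 495, and 254 to 1559 in place of 661, the highest each time without WT vehicle replicate 2. The counts that moved most downward were without WT pyridostatin replicate 1 or 3 or PARP3-/- pyridostatin replicate 2 or 3 (806 to 842), without WT vehicle replicate 3 or WT pyridostatin replicate 1 or 3 (178 to 252), and without any PARP3-/- vehicle library or PARP3-/- pyridostatin replicate 2 or 3 (254 to 346). The interaction gave 1 call in place of 0 with a pseudocount of 0.1, with no filter, and without PARP3-/- vehicle replicate 1 or 3 or WT pyridostatin replicate 1 or 2.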
